A study of Mus musculus with 18 samples.

Results

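Oxidative phosphorylation genes were examined in mammary tumours of ERBB2 (neu) transgenic mice: nuclear genes for subunits of the 4 respiratory chain complexes and of ATP synthase. Members were taken by symbol, from those starting with Ndufa, Ndufb, Ndufc, Ndufs or Ndufv, Uqcr, Cox4 to Cox8, Atp5, or Sdha to Sdhd, leaving out Nduf assembly factors. This gave 86 of the 19938 genes measured, each read by its 1 probe set with the highest mean. Members were assigned to complexes by the start of the symbol alone. Complex I so had 36 members, complex II 4, complex III 8, complex IV 17 and complex V (ATP synthase) 17. This put Ndufa4 and Ndufa4l2 in complex I and Cox7a2l in complex IV, so results by complex follow gene names and not the place of each protein. The letter of the rule also took Sdhaf1, Sdhaf2, Sdhaf3 and Sdhaf4, which are assembly factors of complex II and not subunits, and these 4 are described apart. Another 6 probe sets that hold Cox7c, Ndufb4 or Ndufs5 together with a near-identical copy were not used, so Cox7c and Ndufb4 have no value here.

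In oxidative phosphorylation, complexes I and II pass electrons from NADH and succinate to coenzyme Q, complex III passes them on to cytochrome c, and complex IV reduces oxygen. Complexes I, III and IV pump protons across the inner mitochondrial membrane, and complex V uses the return flow to make ATP. Complex II does not pump, is an enzyme of the TCA cycle as well, and has all its subunits encoded in the nucleus, while the other complexes also hold subunits encoded by mitochondrial DNA. Mammary epithelium raises its mitochondrial content around lactation.

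The study asked how loss of Snai2, a zinc finger transcription factor, goes with the evolution of ERBB2-driven breast tumours. All mice carried the MMTV-neu transgene, which is driven by the mouse mammary tumour virus promoter and came from FVB/N-Tg(MMTVneu)202Mul/J mice; Snai2-deficient mice came from B6;129S1-Snai2tm2Grid/J, and the strain makeup of each group and the ages of the mice are not given in the sources used here. KO mice lacked Snai2 as whole animals per the labels, so host cells of a tumour are KO too. Of the 6 groups 4 were KO: parous with metastasis (3 arrays, used as 2 samples), parous without (3), nulliparous with (1) and nulliparous without (3). The WT groups were parous (4) and nulliparous (4), both with metastasis. WT groups are therefore named by parity alone. Values are log2 expression on 1-colour arrays, on which levels of different genes cannot be set against each other.

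Arrays 2 and 3 of the KO parous group with metastasis were nearly identical, with an SD of 0.102 for their difference over 10252 genes against 0.285 for the next closest of 153 pairs. Their mean was used as replicate 2, which left 17 samples. Snai2 lay between 6.28 and 6.79 in KO and between 6.68 and 7.09 in WT samples, dim in both, with a difference of -0.32 (SE 0.12, limma adjusted p = 0.999) for KO minus WT in the fit adjusted for parity and metastasis. Whether its probes read the deleted sequence was not tested. The defining mammary epithelial markers were bright in every sample, with a mean of 8 genes (Epcam, Krt8, Cdh1, Erbb2 and others) between 11.40 and 12.06. Skeletal muscle markers (12 genes) stood at a mean of 11.01 in WT nulliparous replicate 1 and 9.56 in replicate 3 of the KO parous group without metastasis, against 7.28 to 8.84 in the other samples.

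Sdhb, the iron-sulphur subunit that carries electrons from succinate to coenzyme Q, was the only member that passed in a comparison of groups: it fell in parous WT tumours against nulliparous WT tumours. Its promoter is shown with those of Sdha, the flavoprotein that binds succinate, and Sdhd, a membrane anchor, because these genes of 1 complex are set against it below. RefSeq promoters of GRCm38.p6, from 250 bases before to 50 after the annotated start, were at hand for 71 of the 86 members, and Sdhc had none. Each was searched on both strands for the motifs of NRF1 (GCGCA, any base, then GCGC), ETS factors such as GABPA (CCGGAAG), YY1 (AANATGGCG), ESRRA (TCAAGGTCA) and MEF2 (CTA, any 4 bases, then TAG) and for a TATA box (TATAAA). Capitals mark every match to any of these motifs. The sequences run 5′ to 3′ on the strand of the gene, at chr4:140961021-140961320 on the plus strand for Sdhb, chr13:74350191-74350490 on the minus strand for Sdha and chr9:50603800-50604099 on the minus strand for Sdhd.
Sdhb: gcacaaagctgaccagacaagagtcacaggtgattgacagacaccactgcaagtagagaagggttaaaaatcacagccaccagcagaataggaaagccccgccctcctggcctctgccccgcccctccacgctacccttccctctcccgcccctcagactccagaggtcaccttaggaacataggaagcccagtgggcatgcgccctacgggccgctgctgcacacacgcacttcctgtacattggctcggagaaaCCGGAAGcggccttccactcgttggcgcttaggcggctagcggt
Sdha: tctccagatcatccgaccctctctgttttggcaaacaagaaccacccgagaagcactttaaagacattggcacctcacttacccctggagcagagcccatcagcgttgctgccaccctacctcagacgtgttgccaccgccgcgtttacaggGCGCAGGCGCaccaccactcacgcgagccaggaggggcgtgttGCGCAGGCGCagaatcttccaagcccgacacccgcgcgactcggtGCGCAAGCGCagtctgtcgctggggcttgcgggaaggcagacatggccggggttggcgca
Sdhd: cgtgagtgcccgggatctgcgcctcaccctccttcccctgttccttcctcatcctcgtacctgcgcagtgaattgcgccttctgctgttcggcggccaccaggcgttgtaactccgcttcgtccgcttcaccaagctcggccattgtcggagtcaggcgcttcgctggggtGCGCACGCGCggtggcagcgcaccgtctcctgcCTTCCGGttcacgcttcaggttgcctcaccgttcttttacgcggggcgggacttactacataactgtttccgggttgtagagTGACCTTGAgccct
The Sdhb window held 1 match, to the ETS motif at bases 257 to 263. Sdha held 3 matches to the NRF1 motif, the last of which ended at base 250, and Sdhd held 1 match each to the NRF1, ETS and ESRRA motifs. Over the 76 promoters of members, 25% held the NRF1 motif, against 6.94% of all 19115 promoters in the table. The ETS motif was in 26.3% against 12.1%, YY1 in 14.5% against 3.28% and ESRRA in 2.63% against 0.298%. MEF2 was in 1.32% against 3.55%, and TATAAA in 13.2% against 11.5%. These are letter matches and describe no binding.

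Sdhb expression was 9.95, 10.06, 9.61 and 9.97 in the 4 WT parous tumours and 10.81, 10.75, 10.44 and 10.71 in the 4 WT nulliparous tumours. The groups did not overlap. The log2 difference, parous minus nulliparous, was -0.78 (SE 0.11, limma adjusted p = 0.00735), a 1.72-fold lower level, from 10.68 ± 0.16 (SD, n = 4) to 9.90 ± 0.19 (SD, n = 4). Of the 86 members Sdhb alone passed in this comparison, in which 2.40% of all genes passed, 1.86% lower and 0.542% higher. The call held in each of 25 settings, not all of which change the samples compared. Differences lay between -0.86 and -0.69 and limma adjusted p between 0.00392 and 0.0461.

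In KO tumours Sdhb lay between the WT parous and WT nulliparous tumours by group mean, though single KO samples lay inside the WT ranges. It was 10.03, 10.14 and 10.10 in KO parous mice without metastasis, 9.85 and 10.10 in KO parous mice with metastasis, 10.31, 10.24 and 10.56 in KO nulliparous mice without metastasis and 10.43 in the KO nulliparous mouse with metastasis. All 9 parous samples (9.61 to 10.14) therefore lay below all 8 nulliparous samples (10.24 to 10.81), across both genotypes and both metastasis states. Only 7 of 19938 genes (0.0351%) had every parous sample lower, and 2 genes (0.0100%) had every parous sample higher; Sdhb was the 1 member among these. This separation was noticed in the values and the fit for parity was added afterwards. In that fit, with genotype and metastasis as covariates, Sdhb stood at -0.55 (SE 0.09) and did not pass (limma adjusted p = 0.069, 0.0117 to 0.174 over 24 settings); it passed without replicate 1 or 2 of the KO nulliparous group or replicate 2 of the KO parous group, both without metastasis, and with the near-identical arrays kept apart. Within KO mice without metastasis its difference was -0.28 (SE 0.13, limma adjusted p = 1 after rounding). The parity difference in KO minus that in WT was 0.50 (SE 0.17, limma adjusted p = 0.385), so a smaller effect in KO was not shown.

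The other subunits of complex II did not pass. In WT tumours the parity difference was 0.09 (SE 0.15, limma adjusted p = 0.841) for Sdha, 0.23 (SE 0.10, adjusted p = 0.294) for Sdhc, a membrane anchor that binds coenzyme Q with Sdhd, and 0.04 (SE 0.11, adjusted p = 0.914) for Sdhd. Sdhc was 11.22, 11.19, 11.38 and 11.56 in WT parous and 11.08, 11.00, 11.17 and 11.17 in WT nulliparous tumours, so its parous samples were all higher, opposite in direction to Sdhb. Sdha ranged from 11.10 to 11.97 and Sdhd from 10.62 to 11.12 over the 17 samples, with parous and nulliparous samples interleaved. The lowest Sdha value, 11.10, was in replicate 2 of the KO parous group without metastasis.

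**Figure D1:**
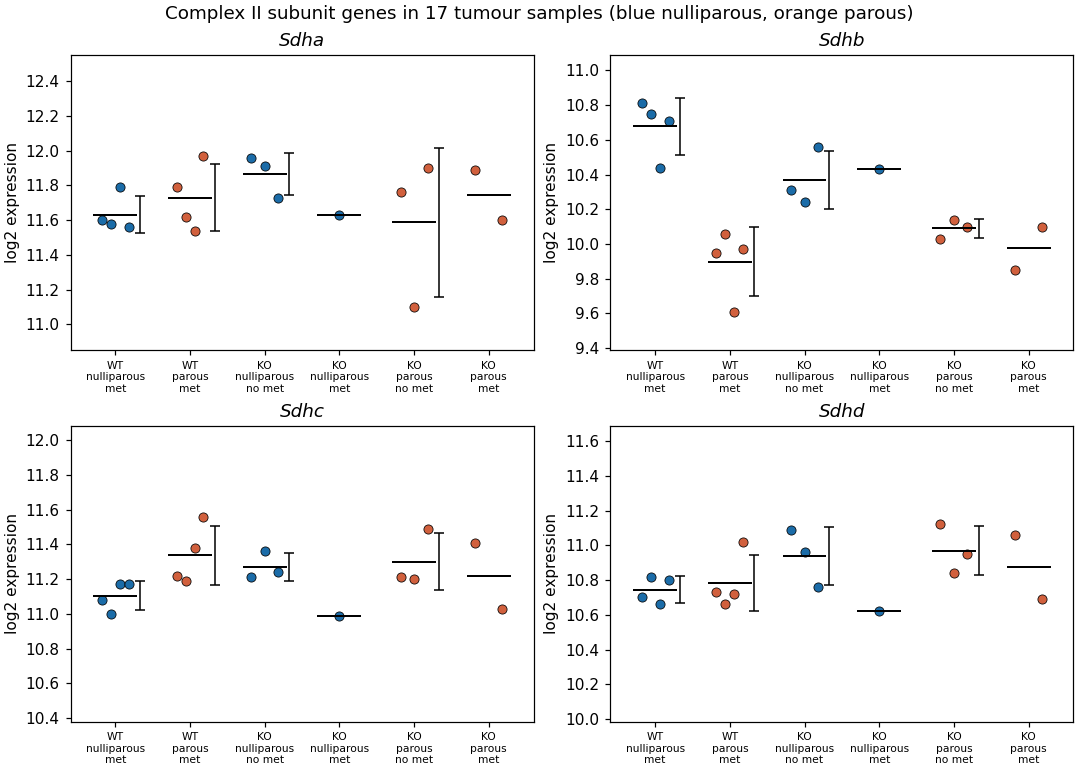
Log2 expression of Sdha, Sdhb, Sdhc and Sdhd in the 17 samples by group, with a point per sample, a line at the group mean and bars of 1 SD for groups of at least 3 samples; met marks metastasis. All parous samples of Sdhb (9.61 to 10.14) lie below all nulliparous ones (10.24 to 10.81), while the other subunits overlap between parous and nulliparous.

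Sdhb lies on chromosome 4, where many genes were lower in parous WT tumours. Of 1154 tested genes on chromosome 4, 148 (12.8%) fell, 891 lay below 0, and the median difference was -0.23. The 4 members on that chromosome all lay below 0: Sdhb, Ndufs5 (-0.36, SE 0.27), Uqcrh (-0.36, SE 0.13) and Ndufb6 (-0.07, SE 0.18), of which Sdhb passed. Ndufs5 and Ndufb6 encode accessory subunits of complex I and Uqcrh the hinge protein of complex III. On chromosome 2, where 80 of 1732 genes (4.62%) fell, 5 of 6 members lay below 0, with a median of -0.08. Of the 76 members on other chromosomes 55 lay above 0, with a median of 0.05. Among the 7 genes with every parous sample lower, Dffa, Dnajc11, Rcc2 and Sdhb lie on chromosome 4. In KO mice without metastasis 2 of the 4 chromosome 4 members lay below 0. The part of the chromosome in the Sdhb difference was not tested.

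In WT tumours the parity difference was above 0 for most members, and apart from Sdhb none passed. The muscle isoforms Cox8b (-1.06) and Cox7a1 (1.04), described below, had larger differences than Sdhb. Of the 86 members 56 lay above and 30 below 0 (34.9% below, against 51.7% of all genes), with a median of 0.04 against -0.01 for all genes tested. Without WT parous replicate 4 the median was 0.0038 and 44 members lay above 0. By complex, 21 of 36 lay above 0 in complex I, 3 of 4 in complex II, 5 of 8 in complex III, 10 of 17 in complex IV and 15 of 17 in complex V. In complex V the highest values were 0.41 (SE 0.17) for Atp5mpl, a small membrane-bound subunit, 0.40 (SE 0.14) for Atp5g2, which encodes the proton-carrying ring subunit, 0.34 (SE 0.10) for Atp5pb of the peripheral stalk and 0.33 (SE 0.10) for Atp5md. None of these passed, with limma adjusted p between 0.0925 and 0.245. Groups did not overlap for 9 members with higher and 4 with lower parous values (4.98% and 7.63% of all genes), and 17 members had an unadjusted p under 0.05 (16.2% of all genes).

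Among the assembly factors and enzymes that work beside the subunits 2 genes passed in WT tumours, both downward. Of all genes 2.40% passed in this comparison, 1.86% of them lower, so counts this small describe the 2 genes and not their lists. Of 37 measured assembly factors 1 fell and 36 did not pass, with a median of -0.03. The gene that fell was Atpaf1, an assembly factor of the catalytic head of ATP synthase, from 9.56 ± 0.21 (SD, n = 4) to 8.78 ± 0.04 (SD, n = 4), a difference of -0.77 (SE 0.19, limma adjusted p = 0.0486). It lies on chromosome 4. Atpaf1 passed in 10 of 26 settings, with adjusted p from 0.00623 to 0.141, and was lost without any 1 of the 4 WT parous samples, WT nulliparous replicate 1, 2 or 4, either KO parous sample with metastasis, or replicate 1 or 2 of the KO nulliparous group without metastasis. Of 17 TCA cycle and pyruvate dehydrogenase genes 1 fell, Pdhx, which anchors E3 in the pyruvate dehydrogenase complex and lies on chromosome 2, at -0.47 (SE 0.06, limma adjusted p = 0.00573), from 8.68 to 8.22, which passed in each of the 26 settings. No member passed among 16 genes of electron carriers and coenzyme Q synthesis (median 0.04), 13 of mitochondrial import (6 above 0), 14 regulators of mitochondrial biogenesis (median 0.07) or 17 of glycolysis. Of the glycolysis genes 16 lay above 0, with a median of 0.33 and 7 at an unadjusted p under 0.05. Of the subunits encoded by mitochondrial DNA, COX2 of complex IV (0.21, SE 0.09) and ND3 of complex I (0.23, SE 0.09) could be matched, and neither passed (limma adjusted p = 0.253 and 0.221).

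In the same comparison all 9 leukocyte, 8 fibroblast, 7 endothelial, 9 adipocyte and 12 muscle markers measured lay below 0, with medians of -0.49, -0.79, -0.19, -0.48 and -0.77, while 5 of 8 epithelial markers lay above 0 (median 0.07). Of all these Lipe, an adipocyte lipase, fell (-0.70, SE 0.14, limma adjusted p = 0.0274, 0.0161 to 0.091 over 26 settings). The Lipe call was lost without WT parous replicate 1, 3 or 4 or WT nulliparous replicate 1 or 4. It was also lost with the replicate number as a block (limma adjusted p = 0.0584) and without both tumours high in muscle markers (limma adjusted p = 0.0878). Leukocyte marker means were 8.15 to 8.71 in parous and 8.46 to 8.95 in nulliparous WT tumours, fibroblast means 8.03 to 10.48 and 9.78 to 10.82, and muscle means 7.28 to 8.55 and 7.33 to 11.01. Their part in the members' differences was not tested; in bulk tumours fewer cells of a type and less RNA per cell cannot be told apart. Without both tumours high in muscle markers Sdhb stood at -0.74 (SE 0.13, limma adjusted p = 0.0461).

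In KO mice without metastasis most members lay below 0, parous minus nulliparous, and none passed. By tumour the groups overlapped. The median deviation of the members from their means over all samples was 0.01, -0.09 and 0.05 in parous tumours. In nulliparous tumours it was 0.09, 0.10 and 0.03. Members of 1 tumour are not replicates, so the counts below describe these tumours alone. Of the 86 members 70 lay below 0 (81.4% against 47.4% of all genes), with a median of -0.11 against 0.01. None passed with limma, as none did among all genes (0%), and 16 had an unadjusted p under 0.05 (3.29% of all genes), 15 of them lower. Groups did not overlap for 16 members with lower parous values (2.90% of all genes) and 1 with higher (3.14%). By complex, 29 of 36 lay below 0 in complex I (median -0.14), 2 of 4 in complex II (-0.12), 8 of 8 in complex III (-0.18), 14 of 17 in complex IV (-0.07) and 13 of 17 in complex V (-0.08).

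The count depended most on replicate 2 of the KO parous group without metastasis. Without it 55 members lay below 0 and the median was -0.04; without any other sample 63 to 74 lay below 0. That tumour had 68 of 86 members below their mean over all samples and the lowest values of Sdha (11.10), Uqcrfs1 (8.88) and Cox7a1 (8.48). Replicate 3 of the same group went the other way, with 63 of 86 members above their mean. No marker of another cell type passed in this comparison. Leukocyte markers had the opposite sign to most members, with 9 of 9 above 0 (median 0.23), as had muscle markers with 12 of 12 above 0 (median 0.34), while 7 of 8 fibroblast markers lay below 0 (median -0.18) and 4 of 8 epithelial markers (median 0.08). Leukocyte means were 8.14 to 8.93 in parous and 7.89 to 8.37 in nulliparous tumours, muscle means 7.77 to 9.56 and 7.68 to 8.84. Without both tumours high in muscle markers 74 members lay below 0, with a median of -0.13; the part of the other markers was not tested.

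Uqcr11, a small subunit of complex III, had the lowest p of the members in KO tumours. It was 11.49, 11.28 and 11.59 in parous and 12.00, 11.90 and 11.80 in nulliparous KO tumours without metastasis. The groups did not overlap, and the difference was -0.45 (SE 0.11, limma adjusted p = 1 after rounding, unadjusted p = 0.00109). In WT tumours it was 0.03 (SE 0.09). Atp5e, the epsilon subunit of ATP synthase, was 9.72, 9.55 and 9.96 against 10.07, 10.30 and 10.46 (-0.53, SE 0.17). Atp5l, the g subunit of the membrane part of ATP synthase, was 9.64, 9.97 and 10.01 against 10.41, 10.28 and 10.16 (-0.41, SE 0.13). Both groups were again separate for each gene. Ndufa7, an accessory subunit of complex I, stood at -0.35 (SE 0.11) and Uqcrfs1, the Rieske iron-sulphur protein, at -0.51 (SE 0.27). The largest positive difference was that of Ndufs5, at 0.52 (SE 0.31), whose nulliparous values of 7.64, 7.66 and 8.93 spanned its parous values of 8.52, 8.72 and 8.58. No member named here passed.

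Most assembly factors lay below 0 too in KO mice without metastasis: 31 of 37, with a median of -0.11. Of these factors 0 passed with limma (4 at an unadjusted p under 0.05). The 4 complex II assembly factors among the members were all below 0. Sdhaf4, which helps mature the flavoprotein subunit, was 7.72, 7.82 and 8.01 in parous and 8.05, 8.15 and 8.10 in nulliparous KO tumours without metastasis (-0.25, SE 0.08), and 7.50 to 7.78 in the remaining 11 samples. The KO nulliparous group without metastasis thus held its 3 highest values. In KO parity, medians were -0.03 for the TCA cycle, -0.08 for electron carriers, -0.02 for import, -0.06 for regulators and -0.08 for glycolysis, with 0 genes passing in each.

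**Figure D2:**
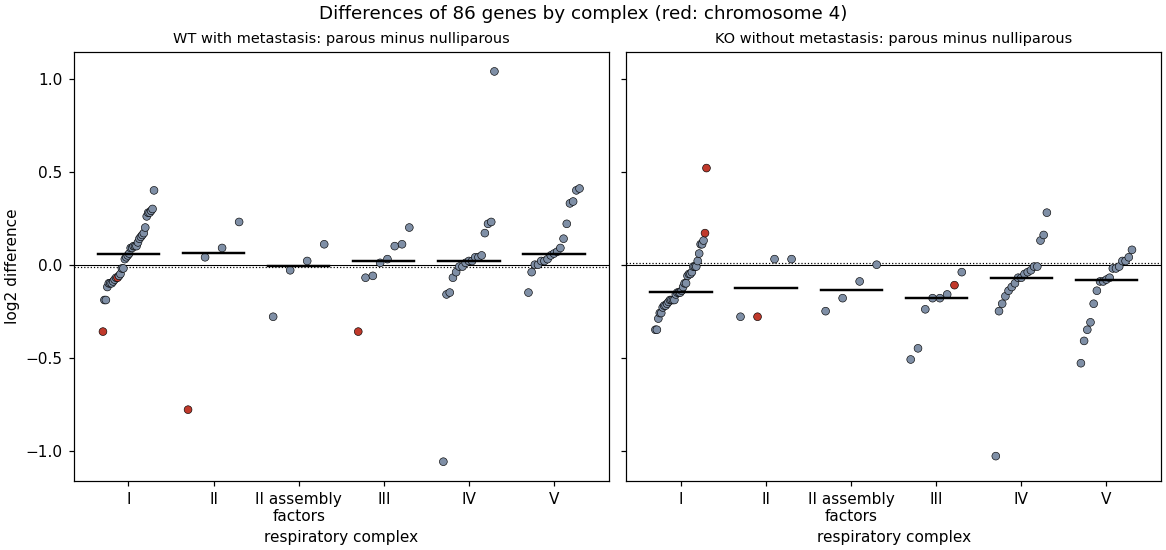
Log2 differences, parous minus nulliparous, of the 86 genes by respiratory complex, in WT mice with metastasis (left) and KO mice without metastasis (right); each point is a gene, red points lie on chromosome 4, black bars are medians and the dotted line is the median of all genes tested. In KO the median of every complex lies below 0, from -0.18 to -0.07, and in WT Sdhb (-0.78), Cox8b (-1.06) and Cox7a1 (1.04) stand apart.

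Set side by side, 45 of 86 members (52.3%) lay above 0 in WT and below 0 in KO, against 23.4% of all genes. In the test of the difference itself, KO parity minus WT parity, 67 of 86 members lay below 0 (77.9% against 45.1% of all genes), with a median of -0.15 against 0.02. None passed with limma, as none did among all genes (0%), and 21 had an unadjusted p under 0.05 (9.64% of all genes), 19 of them negative. Complex V had 16 of 17 members below 0 (median -0.22), complex III 7 of 8 (-0.22), complex IV 12 of 17 (-0.08), complex I 26 of 36 (-0.17) and complex II 3 of 4 (-0.10), Sdhb being the exception there. The median was -0.10 without WT parous replicate 4 and -0.20 without WT parous replicate 2. Other metabolic lists also lay mostly below 0, and none of their genes passed. This held for 15 of 17 glycolysis genes (median -0.49), 11 of 16 genes of electron carriers and coenzyme Q (-0.13) and 10 of 17 TCA cycle genes (-0.04). The signs are therefore not particular to the members. Metastasis status differs together with genotype in this comparison, so their effects cannot be told apart. Marker lists differed too: all 9 leukocyte, 8 fibroblast, 7 endothelial and 12 muscle markers lay above 0 (medians 0.75, 0.56, 0.38 and 1.15), and their part was not tested.

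**Figure D3:**
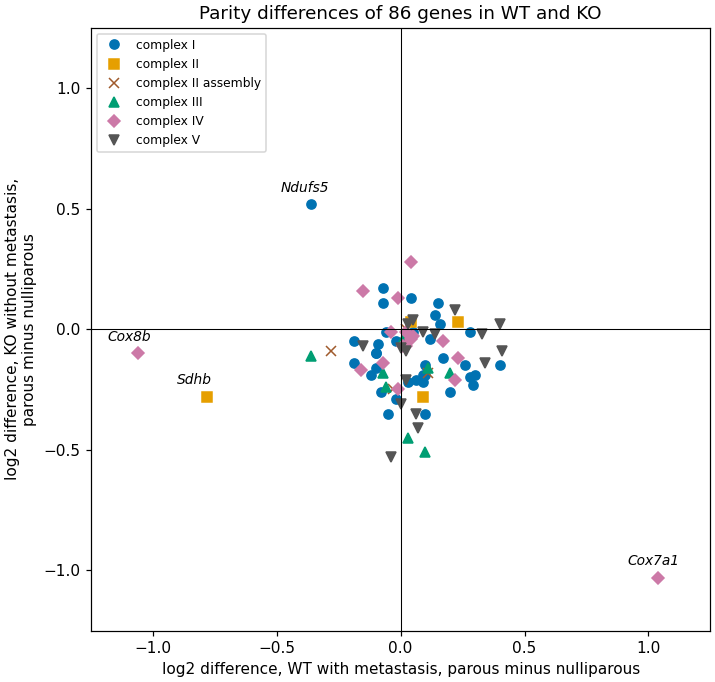
Log2 differences of the 86 genes between parous and nulliparous tumours in WT mice with metastasis (x axis) and KO mice without metastasis (y axis), with a point per gene marked by complex. The field right of and below 0 holds 45 genes; Cox7a1 lies farthest out there (1.04 and -1.03) and Sdhb lies below 0 on both axes (-0.78 and -0.28).

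The widest spread among the members was in Cox7a1 and Cox8b of complex IV, with ranges of 2.65 and 1.99 over the samples. Cox7a1 and Cox8b are the isoforms used in heart, skeletal muscle and brown fat, in place of the general Cox7a2 and Cox8a. Their promoters are shown because these genes varied most, at chr7:30183921-30184220 on the plus strand for Cox7a1 and chr7:140900397-140900696 on the minus strand for Cox8b, in GRCm38.p6 from RefSeq, with matches to the motifs above in capitals.
Cox7a1: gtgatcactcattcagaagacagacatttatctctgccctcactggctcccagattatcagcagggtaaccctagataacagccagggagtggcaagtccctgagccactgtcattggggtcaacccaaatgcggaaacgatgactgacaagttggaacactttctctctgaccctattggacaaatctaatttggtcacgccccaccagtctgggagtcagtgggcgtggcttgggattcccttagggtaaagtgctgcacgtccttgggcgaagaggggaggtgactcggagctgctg
Cox8b: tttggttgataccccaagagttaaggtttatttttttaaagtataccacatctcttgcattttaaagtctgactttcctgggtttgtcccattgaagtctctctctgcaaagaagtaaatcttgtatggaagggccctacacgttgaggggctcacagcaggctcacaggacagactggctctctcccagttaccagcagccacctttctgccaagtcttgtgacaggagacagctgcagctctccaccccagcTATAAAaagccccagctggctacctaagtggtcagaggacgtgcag
Neither window held a MEF2 motif as spelled above. Cox8b held 1 match, to TATAAA at bases 255 to 260, which lies after the annotated start and not before it. Cox7a1 held none of the 6 motifs.

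Cox7a1 was 10.20, 9.17, 10.05 and 11.13 in WT parous and 9.08, 8.66, 9.29 and 9.35 in WT nulliparous tumours. In KO it was 10.26, 10.16 and 10.49 in nulliparous and 9.18, 8.48 and 10.15 in parous mice without metastasis, 10.42 and 8.82 in parous mice with metastasis and 9.34 in the nulliparous mouse with metastasis. The sign of its parity difference was opposite in WT mice with metastasis and KO mice without metastasis: it was 1.04 (SE 0.44, limma adjusted p = 0.253) in WT, with 1 parous sample inside the nulliparous range, and -1.03 (SE 0.50, limma adjusted p = 1 after rounding) in KO without metastasis, with no overlap. In KO mice with metastasis the single nulliparous value, 9.34, lay between both parous values. No WT group was without metastasis, so genotype and metastasis cannot be told apart here. The difference between both contrasts was -2.07 (SE 0.67, limma adjusted p = 0.370) and did not pass in any of 25 settings (0.220 to 0.640). The highest value, 11.13, was in a tumour with a muscle marker mean of 7.43, where the lowest of the samples was 7.28, and brown adipocyte markers (5 genes) had means between 6.72 and 7.32 over all samples. Ppargc1a, which is among these 5 genes and is a coactivator that drives mitochondrial biogenesis, stood at 0.73 (SE 0.31) in WT and -0.34 (SE 0.36) in KO. It passed in neither.

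Cox8b was 7.77, 7.35, 7.15 and 7.06 in WT parous and 9.05, 8.57, 7.93 and 8.02 in WT nulliparous tumours, without overlap. The difference was -1.06 (SE 0.34) and did not pass (limma adjusted p = 0.123, 0.0519 to 0.309 over 25 settings). In KO it was 7.71, 7.35 and 8.23 in nulliparous and 7.14, 7.20 and 8.63 in parous mice without metastasis, 7.16 and 7.12 in parous mice with metastasis and 7.29 in the nulliparous mouse with metastasis. Its highest values, 9.05 and 8.63, were in the tumours with the highest muscle marker means, 11.01 and 9.56. Cox6a2, another muscle isoform, was also highest there, at 9.01 and 8.76 against 8.04 to 8.55 elsewhere. Adipocyte marker means in the same tumours were 8.70, the highest of all samples, and 7.47, and brown adipocyte means 6.75 and 6.95. The part of muscle, adipocytes or other cells in the Cox8b values was not tested. The next Cox8b value, 8.57, was in WT nulliparous replicate 2, with a muscle mean of 7.75. KO nulliparous replicate 3 without metastasis had a muscle mean of 8.84 and Cox8b at 8.23. KO parous replicate 2 without metastasis (muscle mean 8.60) and WT parous replicate 2 (8.55) had Cox8b at 7.20 and 7.35. Without both tumours high in muscle markers the Cox8b difference in WT was -0.84 (SE 0.23, limma adjusted p = 0.130) and that of Cox6a2 0.02 (SE 0.09) in place of -0.15 (SE 0.15).

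**Figure D4:**
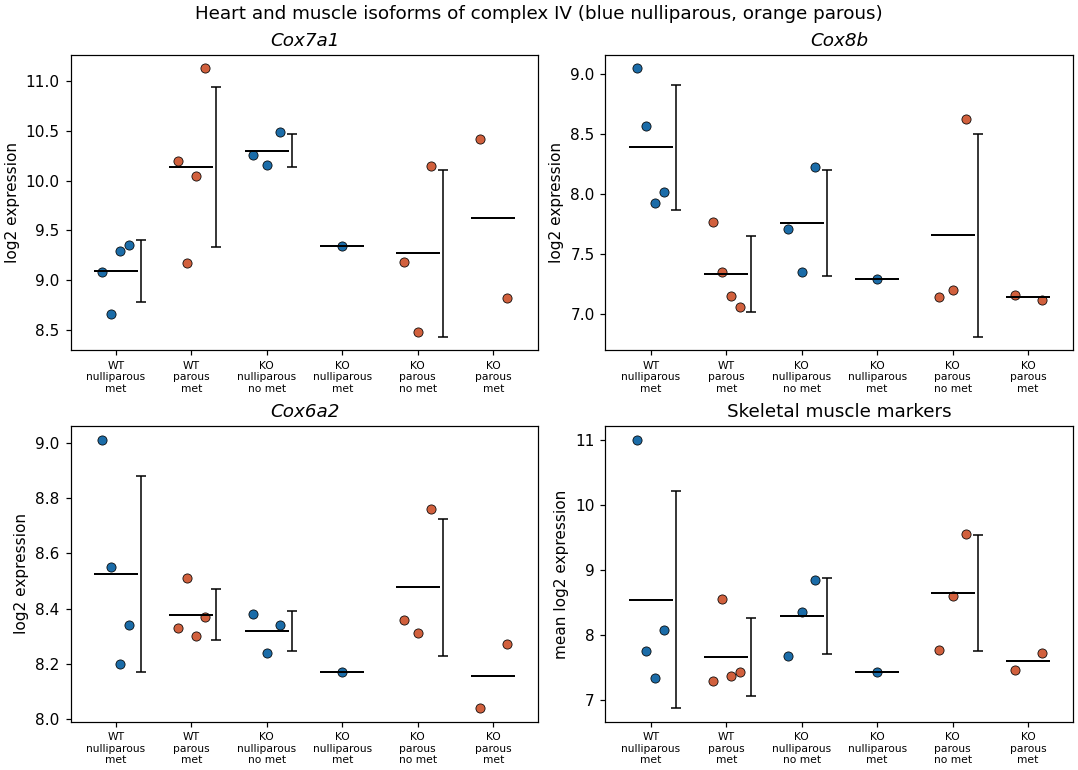
Log2 expression of Cox7a1, Cox8b and Cox6a2 and the mean log2 expression of 12 skeletal muscle markers in the 17 samples by group, with a point per sample, a line at the group mean and bars of 1 SD for groups of at least 3 samples. Cox8b and Cox6a2 are highest in the tumours with muscle means of 11.01 and 9.56, while the highest Cox7a1 value, 11.13, is in a tumour with a muscle mean of 7.43. The next Cox8b value, 8.57, is in WT nulliparous replicate 2, with a muscle mean of 7.75.

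The general isoforms varied less than Cox7a1, Cox8b and Cox6a2, with ranges up to 0.66 (Cox6a1) against 2.65, 1.99 and 0.97. Cox7a2 ranged from 11.44 to 12.00, Cox8a from 11.83 to 12.32, Cox6a1 from 11.08 to 11.74, Cox6b1 from 12.01 to 12.66, Cox4i1 from 10.78 to 11.33 and Cox7b from 12.86 to 13.22. The testis isoforms were dim, with Cox6b2 between 6.67 and 7.09, Cox7b2 between 5.29 and 5.49 and Cox8c between 7.17 and 7.80. Cox4i2, an isoform known from lung and from responses to low oxygen, lay between 7.58 and 8.04. Cox6b2, Cox4i2 and Cox7b2 had narrower ranges (0.43, 0.46 and 0.21) than Cox6b1, Cox4i1 and Cox7b (0.65, 0.55 and 0.36). In WT tumours Cox7a2 differed by 0.22 (SE 0.09) and in KO by -0.21 (SE 0.10), neither past the threshold. Over all members 8 of 86 (9.30%) spanned at least 1 log2 unit across samples, against 24.0% of all genes, while the median range was 0.63 against 0.61. These 8 were Cox7a1, Cox8b, Ndufs5 (1.58), Uqcrfs1 (1.48), Sdhb (1.20), Ndufa2 (1.03), Ndufs6 (1.02) and Atp5e (1.00).

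Over the 6 groups the moderated F test of limma found 1 member that differed, Sdhb (adjusted p = 0.0423), with a range of 0.78 between group means. Of all genes 0.436% passed, and 16 members had an unadjusted p under 0.05 (12.4% of all genes). That call depended on the samples and settings, with adjusted p from 0.0195 to 0.193: it was lost without any 1 of the WT parous samples, WT nulliparous replicate 1, 2 or 4, replicate 1 of KO parous mice with metastasis, replicate 1 or 3 of KO parous mice without metastasis, or replicate 1 of KO nulliparous mice without metastasis. In order of group means Sdhb stood at 9.90 in WT parous, 9.97 in KO parous with metastasis, 10.09 in KO parous without metastasis, 10.37 in KO nulliparous without metastasis, 10.43 in the KO nulliparous mouse with metastasis and 10.68 in WT nulliparous tumours. The ranges of the 3 parous groups overlapped, as did those of WT and KO nulliparous groups, and the single mouse at 10.43 lay just under the lowest WT nulliparous value of 10.44. Next came Sdhaf4 (adjusted p = 0.0534), then Ndufa2 of complex I (adjusted p = 0.0936). Ndufa2 was lowest in the KO nulliparous mouse with metastasis at 9.66, against 10.01 to 10.69 in the other samples. In the other complexes the smallest F p-values were those of Uqcr11 in complex III (adjusted p = 0.192), Atp5e in complex V (0.291) and Cox7a2 in complex IV (0.325).

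In 10 of 17 tumours all complexes deviated in the same direction. The level of a complex in a sample was taken as the median deviation of its genes from their means over the 17 samples, in log2 units. In 5 samples all 5 complexes lay above 0 and in 5 all lay below, with signs mixed in the other 7. The same median over all genes lay between -0.04 and 0.05. In replicate 2 of KO parous mice with metastasis it was -0.04, close to the -0.06 of all members. How often other sets of genes share a sign in this way was not counted. Over all members together WT parous replicate 4 stood highest, at 0.15, with complex levels from 0.12 to 0.23 and 68 of 86 members above their mean. In complexes III and V, KO nulliparous replicate 2 without metastasis was higher, at 0.24 and 0.20 against 0.13 and 0.15. The KO nulliparous mouse with metastasis stood lowest over all members, at -0.14, with levels from -0.15 to -0.06 and 74 of 86 members below their mean, although it is 1 tumour with no replicate. In complex III (-0.17) and complex IV (-0.09) replicate 2 of the KO parous group without metastasis was lower, against -0.13 and -0.06. For all members together, group means of the level ran from -0.14 in that mouse to 0.07 ± 0.04 (SD, n = 3) in KO nulliparous mice without metastasis, while the other 4 groups lay between -0.03 and 0.02. The KO nulliparous group without metastasis was the 1 group of several samples in which every sample was positive, at 0.09, 0.10 and 0.03. Complex III reached 0.16 ± 0.08 (SD, n = 3) there.

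**Figure D5:**
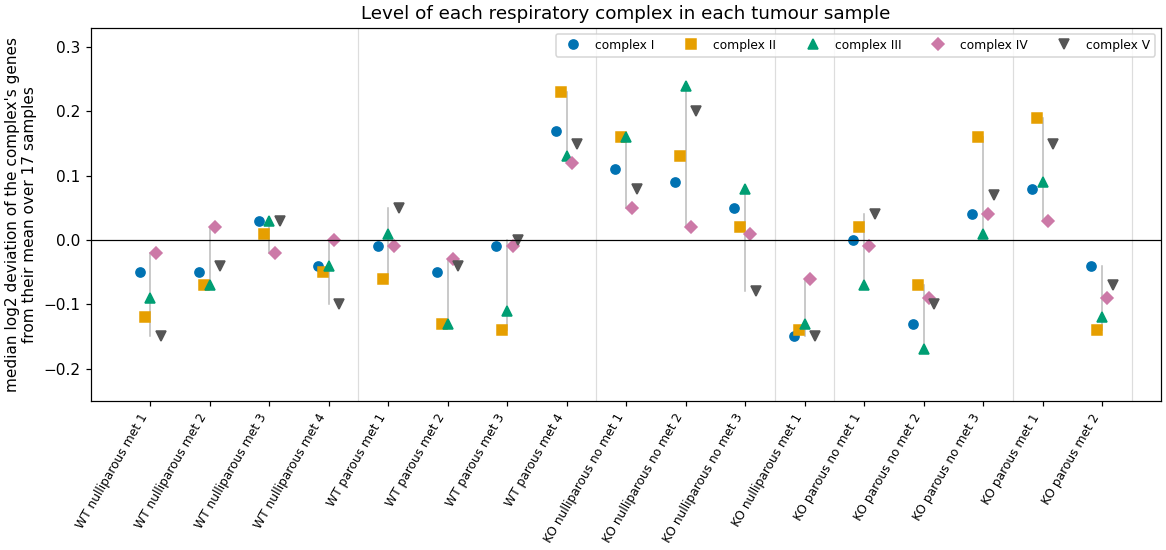
Level of each complex in each of the 17 samples, as the median log2 deviation of its genes from their mean over all samples, with the 6 groups separated by vertical lines. All 5 complexes lie above 0 in 5 samples, among them WT parous replicate 4 (0.12 to 0.23), and below 0 in 5, among them the KO nulliparous mouse with metastasis (-0.15 to -0.06).

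No member passed between genotypes. Among parous mice with metastasis, KO (n = 2) minus WT (n = 4), 41 members lay above and 45 below 0, with a median of -0.01 against -0.03 for all genes. None passed with limma, as none did among all genes (0%), and 1 member had an unadjusted p under 0.05 (5.73% of all genes), Ndufa2 at 0.27 (SE 0.11). It was 10.69 and 10.55 in KO and 10.26, 10.35, 10.31 and 10.51 in WT. Groups did not overlap for 3 members higher in KO (6.27% of all genes) and 4 lower (11.7%). Of the markers 7 of 7 endothelial (median -0.25), 7 of 9 leukocyte (-0.14), 9 of 12 muscle (-0.14) and 4 of 8 fibroblast (-0.02) lay below 0, and none passed. In the fit over all samples that adjusts for parity and metastasis, KO minus WT, 60 members lay below 0 (69.8% against 62.0% of all genes), with a median of -0.04 against -0.03, 0 passed with limma (0% of all genes) and 0 had an unadjusted p under 0.05 (4.44% of all genes). The extremes were Cox8b at -0.58 (SE 0.35) and Atp5l at 0.21 (SE 0.13). For parity in the same fit, 45 members lay above 0, with a median of 0.01, 0 passed with limma (0% of all genes) and 11 had an unadjusted p under 0.05 (12.7%). Cox8b had the lowest value there, -0.57 (SE 0.25), and Atp5mpl the highest, 0.24 (SE 0.13).

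Among KO parous mice, those with metastasis (n = 2) and without (n = 3) differed in no member at the threshold. With minus without, 51 members lay above 0, with a median of 0.04 against -0.03 for all genes. None passed with limma, as none did among all genes (0%), and 4 had an unadjusted p under 0.05 (4.04% of all genes). Groups did not overlap for 10 members higher with metastasis (4.41% of all genes) and 4 lower (10.0%). The largest positive difference was 0.47 (SE 0.19) for Atp5e, at 10.25 and 10.18 with metastasis against 9.72, 9.55 and 9.96 without. Ndufa2 stood at 0.38 (SE 0.12), with 10.69 and 10.55 against 10.43, 10.01 and 10.28. The median changed sign with the sample left out: it was -0.04 without replicate 1 and 0.11 without replicate 2 of the mice with metastasis. All 17 glycolysis genes lay above 0 in this comparison (median 0.29), and 0 passed. Marker lists had the other sign, with 12 of 12 muscle (median -0.92), 8 of 8 fibroblast (-0.45), 7 of 7 endothelial (-0.31) and 8 of 9 leukocyte markers (-0.31) below 0 and none past the threshold. Muscle means were 7.46 and 7.72 with metastasis against 7.77, 8.60 and 9.56 without; their part in the members' differences was not tested.

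For each complex the member whose probe set had the highest mean signal is also given, a choice that ranks probe sets and not the abundance of the genes. Over all genes tested the median range between group means was 0.28. Ndufc2 of complex I had group means from 12.63 to 12.78, Uqcrb of complex III from 12.52 to 12.84, Cox6c of complex IV from 12.99 to 13.31 and Atp5b, the catalytic beta subunit of ATP synthase, from 13.17 to 13.38. Sdha, the member of complex II so chosen, had group means from 11.59 to 11.87. The lowest or highest of these means was that of the single KO nulliparous mouse with metastasis for Uqcrb, Cox6c and Atp5b, each lowest there.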

How the data were processed

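Total RNA of 18 mammary tumours was hybridised to 1-colour Affymetrix arrays. The deposited table holds log2 expression values, made by the authors with RMA and oligo per the submitters' processing notes, whose versions are not given in the sources used here. This method includes background correction and quantile normalization, which takes out any shift common to all genes, and it compresses differences of dim genes. Arrays have no read depth, so precision is limited by their number. Array medians lay between 7.60 and 7.67. Of 35556 probe sets 21789 had 1 gene in the platform annotation, and the 1 with the highest mean was kept per gene, for 19938 genes. All 86 members matched RefSeq by Entrez identifier. That table gave chromosomes only, because no source used here names the platform's genome build.

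Comparisons used limma 3.58.1 under R 4.3.3, with 2-sided moderated tests from lmFit and eBayes, on group means of 17 samples, with Benjamini-Hochberg adjustment over 19938 genes in each comparison and a threshold of 0.05. The additive fit had genotype, parity and metastasis as terms. The script was tested on simulated data. P-values measure the spread between tumours, which the labels call biological replicates. Members and lists were chosen with earlier results of these data known, so counts and medians over them are descriptions. Named members were those that passed, the smallest F p and highest mean per complex, tissue isoforms with their general partners, and the largest rise and fall per comparison; members with a low unadjusted p, a wide range or a place on chromosome 4 were added after their values were seen. Alternatives changed the averaging of the near-identical arrays, the filter on dim genes, the normalization, the probe set rule, the eBayes setting, the groups in the fit, the replicate block and each sample in turn. Leaving out both tumours high in muscle markers, and the parity term of the additive fit, were added after seeing the data.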

Additional observations from a re-analysis of the deposited data

Results flagged for a closer look

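Of 60 values per group of 4 samples that were examined, 3 had a sample far from the other 3, where chance flags about 1 in 20. Cox8a, the general isoform of a small subunit of complex IV, was 12.15 in WT nulliparous replicate 1 against 12.08 in each of the other 3 after rounding. The level of complex I was 0.17 in WT parous replicate 4 against -0.05 to -0.01 in the others of that group, and the level of complex IV was 0.12 in the same tumour against -0.03 to -0.01.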

How the results depend on the processing

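The fall of Sdhb in WT parity kept its direction and its call in each of 25 settings. These are not separate tests. Leaving out the single KO nulliparous tumour with metastasis repeats the main fit. Leaving out another KO sample keeps the difference at -0.78 and can change only its SE and adjusted p. The number of genes that passed in WT parity, 478, was 47 without both tumours high in muscle markers, 212 with the replicate number as a block and 878 with only the 2 groups compared, and 57 (WT nulliparous replicate 4) to 770 (replicate 2 of the KO parous group without metastasis) with 1 sample left out. In the F test over 6 groups 87 genes and 1 member passed; with the near-identical arrays kept apart these were 200 and 3, and without both muscle-high tumours 13 and 0. The F test gave 50 genes with the dimmest 40% of genes left out, 14 genes and 0 members with the replicate block, 0 members with trend and robust eBayes, 0 members after a further quantile normalization, and 21 to 204 genes and 0 to 3 members with 1 sample left out. For parity in the additive fit 0 genes and 0 members passed, 55 and 1 with the near-identical arrays apart, and 0 to 369 and 0 to 1 with 1 sample left out. With 1 sample left out, genes past the threshold ran from 0 to 2 in KO parity, 0 to 8 in the difference of parity contrasts, 0 to 17 for genotype in parous mice with metastasis and 0 to 5 for metastasis in parous KO mice. The member median then ran from -0.08 to 0.07 for genotype and from -0.04 to 0.11 for metastasis. Cox7a1 in the genotype comparison turned from -0.52 to 0.29 without KO replicate 2 and lay between -1.32 and 0.29. The cause of these changes was not tested. Same-numbered parous and nulliparous samples had correlations of their deviations from -0.31 to 0.07. Those of parous KO samples with and without metastasis were 0.20 and 0.42, and those of parous KO and WT samples with metastasis 0.01 and 0.34, over 2 pairs each. No comparison had 3 pairs all above 0.1, so the numbers were not taken as pairs and the replicate block is given here alone. The F test without the single KO nulliparous tumour with metastasis, and groups compared alone for the F and additive fits, gave no value. Groups of 1 to 4 tumours limit what could be resolved, and dim genes such as Cox7b2 lie near the array's floor.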
